A study of Zea mays with 11 samples.

Results

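The genes described here encode core subunits of Polycomb repressive complex 2 (PRC2) in maize: fie1 (GRMZM2G118205), fie2 (GRMZM2G148924) and mez1 (GRMZM2G157820). The fie genes were taken by identifier, and mez1 because its Arabidopsis match was described as curly leaf, which gave 3 of the 34145 genes in the table. No gene was described as swinger, medea, enhancer of zeste or embryonic flower 2. Such descriptions accompanied 11464 genes (33.6%), so relatives without one could not be found this way. The genes mez2 and mez3, matched to the symbol EZA1 (an older name of SWINGER), and 3 genes matched to AtEMF2 are given below as part of a wider list of 18 PRC2 subunit genes that also holds the 3 genes above.

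PRC2 is a chromatin complex that places the repressive methyl mark on lysine 27 of histone H3. Its catalytic subunit is of the Enhancer of zeste, or E(z), type, and FIE, an EMF2-type protein and an MSI-type histone-binding protein hold the complex together. In Arabidopsis a seed form of PRC2 with MEDEA and FIE keeps endosperm from forming without fertilization. In maize endosperm fie1 and mez1 are known as imprinted genes, read mainly from the copy inherited from the mother. The fie2 gene is known to be active in many tissues, and it was also placed in the list of imprinted genes used below.

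The samples came from Mo17, a maize inbred line, which was raised in a field and selfed, with all ears pollinated on 1 day. Polyadenylated RNA was sequenced from whole kernels (labelled whole seed) 3 and 5 days after pollination (DAP), from hand-dissected endosperm on days 7, 9, 10 and 11 and on days 13, 15, 20 and 25, and from ear leaf at 13 DAP as the control tissue. Every stage had 1 library, so the spread between plants was not measured and values close to each other cannot be ordered. All values are the authors' FPKM, fragments scaled to transcript length and library size, so that levels can be set side by side between genes. Depth is unknown, and a gene at 0 is only listed at 0. In a selfed inbred the maternal and paternal copies are alike, so imprinting itself was not measured.

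The tissue labels were checked against marker lists. The 21 leaf genes summed to between 1.36 and 4.15 FPKM in the endosperm libraries, to 19.88 and 10.42 FPKM in the 3 and 5 DAP kernels, and to 5449 FPKM in ear leaf. The 6 endosperm storage and starch genes summed to 73.44 FPKM at 7 DAP and 32309 FPKM at 20 DAP in endosperm, and to 5.28 FPKM in ear leaf, where 3 of the 6 were listed at 0. The 5 embryo genes, mostly oleosins, which the aleurone also makes, summed to between 30.73 FPKM at 7 DAP and 163.7 FPKM at 10 DAP in endosperm, with the seed regulator vp1 at 4.77 FPKM or less. An oleosin match among them, AC206941.2_FG002, was uneven, at 7.01 FPKM on day 7, 0.06 on day 9, 13.3 on day 10 and 0.07 on day 25. Whether embryo tissue was carried into the dissected endosperm was not tested. The share of the 10 most abundant genes in the summed FPKM was 4.5% at 7 DAP and 27.1% at 25 DAP.

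The fie1 transcript was low in young kernels, high in early endosperm and lower from 13 DAP on. It stood at 0.47 FPKM in the 3 DAP kernel and 1.68 FPKM in the 5 DAP kernel. In endosperm it was at 53.22 FPKM on day 7, 69.19 on day 9, 47.31 on day 10, 47.12 on day 11, 16.11 on day 13, 20.47 on day 15, 9.69 on day 20 and 7.49 on day 25, and in ear leaf it was listed at 0. The lowest of the 4 earliest endosperm values was thus above the highest of the 4 later ones, and every endosperm value was above both kernel values. In the 9 DAP endosperm fie1 lay above 97.0% of the genes detected in that library. At 25 DAP it lay above 78.2% of them.

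**Figure D1:**
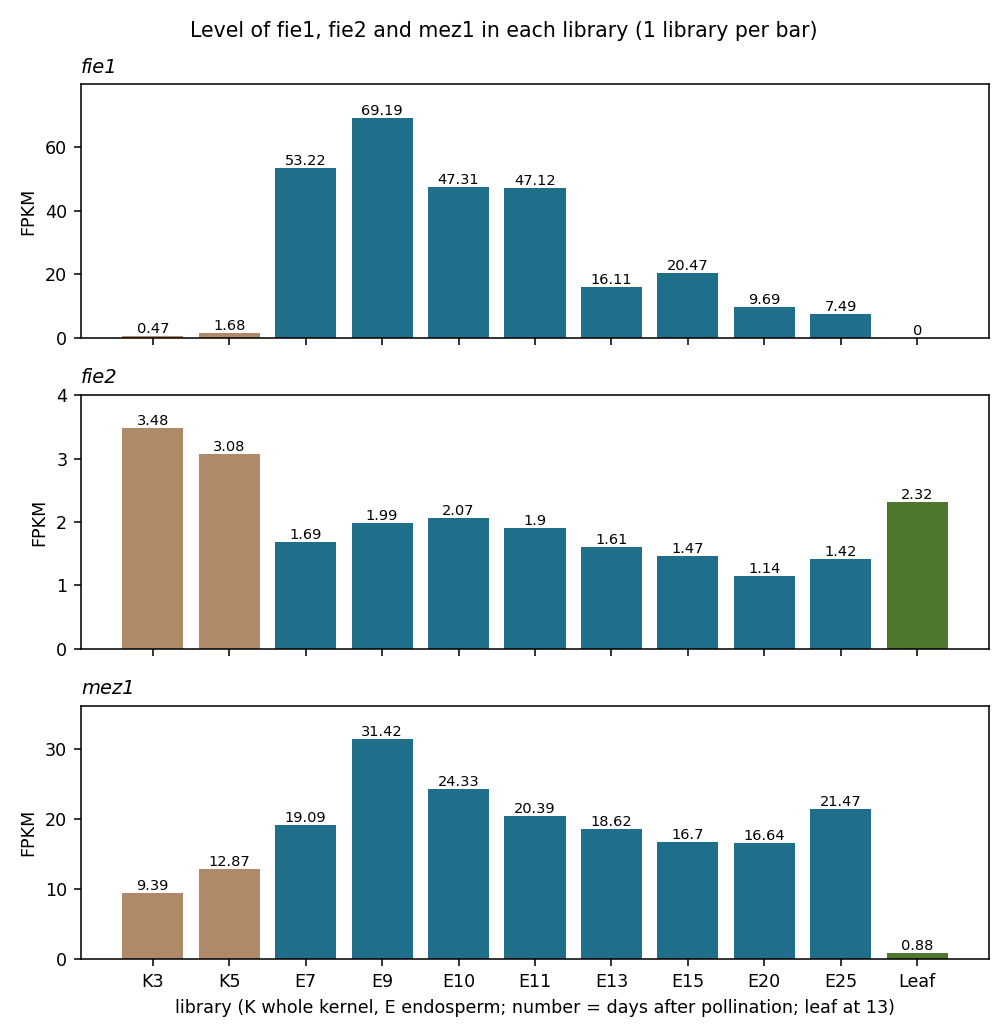
FPKM of fie1, fie2 and mez1 in each of the 11 libraries, 1 bar per library, with whole kernels in brown, endosperm in blue and ear leaf in green. The fie1 bars are highest at 9 DAP (69.19 FPKM) and absent in leaf, the fie2 bars are highest in the 3 DAP kernel (3.48 FPKM), and the mez1 bars stay between 16.64 and 31.42 FPKM through endosperm development.

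The fall of fie1 across endosperm development was larger than the scatter of the stages about a straight line. Its slope over the 8 endosperm libraries was -0.178 ± 0.0263 per day (SE) on the log2(FPKM + 1) scale, with an adjusted p of 0.0014 by limma with Benjamini-Hochberg adjustment. The line corresponds to a change of -3.20 on that scale between 7 and 25 DAP. It lay below the median slope of all 15149 tested genes, which was -0.0339 per day, a median change of -0.61 over the same days. Relative to that median the slope of fie1 was -0.144 per day. Under quantile normalization, upper quartile scaling and rescaling without the 100 highest genes, which brought the median change to between -0.09 and -0.01, the slope of fie1 was -0.139, -0.139 and -0.142 per day and stayed called. A joint test of day and day squared, which also covers curved changes, called fie1 too (adjusted p = 0.0015). That call was lost without the 20 and 25 DAP libraries (adjusted p = 0.095), while the slope call was kept (adjusted p = 0.027).

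The fie2 transcript was low throughout and highest in kernels. It measured 3.48 FPKM at 3 DAP and 3.08 FPKM at 5 DAP in kernels. In endosperm it was at 1.69 FPKM on day 7, 1.99 on day 9, 2.07 on day 10, 1.9 on day 11, 1.61 on day 13, 1.47 on day 15, 1.14 on day 20 and 1.42 on day 25, and in ear leaf at 2.32 FPKM. As deposited, both kernel values and the leaf value were above every endosperm value, but the leaf value lay close to the 2.07 FPKM of day 10, and after quantile normalization and upper quartile scaling fie2 was higher in 13 DAP endosperm than in leaf (log2 ratios 0.25 and 0.11). In all 11 libraries fie2 ranked near the middle of the detected genes, above 45.7% to 54.5% of them.

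Over the endosperm stages the slope of fie2 was -0.0219 ± 0.0132 per day (SE), with an adjusted p of 0.2 by limma, and the curved test did not call it (adjusted p = 0.32). The sign of that slope depended on scaling: it was 0.0137 after quantile normalization, 0.00443 after upper quartile scaling and 0.00175 after rescaling without the 100 highest genes, and was not called under any of them. All 3 genes passed the filter of a mean of at least 1 FPKM over the endosperm libraries, and 1 of the 3 fell, beside 37.4% of all tested genes. No member rose, beside 10.3% of all tested genes, and 1 of 3 passed the curved test, beside 54.4%.

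The FIE-type signal was mostly fie2 in the 3 and 5 DAP kernels and mostly fie1 in endosperm from 7 DAP on. The fie1 gene held 11.9% of their summed FPKM in the 3 DAP kernel and 35.3% in the 5 DAP kernel. In endosperm its share was 96.9% on day 7, 97.2% on day 9, 95.8% on day 10, 96.1% on day 11, 90.9% on day 13, 93.3% on day 15, 89.5% on day 20 and 84.1% on day 25, and in leaf all of the FIE-type signal was fie2. So fie2 was the higher of the pair in kernels and leaf, and fie1 the higher at every endosperm stage. The ratio of fie1 to fie2 FPKM was 34.8 at 9 DAP and 5.28 at 25 DAP.

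The slopes of the pair differed by -0.156 per day, fie1 minus fie2. An exact two-sided permutation test over the 40320 orders of the 8 days gave p = 0.00042, or 0.003 adjusted over the 7 pairs tested within subunit families. Neighbouring days are not freely exchangeable, so this p describes the order of the stages and not replicate error. The adjusted p was 0.24 without the 20 and 25 DAP libraries and 0.068 without the 9 and 25 DAP libraries, with differences of -0.214 and -0.165 per day. The FIE-type genes are related copies, and the authors' mapping could share reads between them. In leaf, with fie2 at 2.32 FPKM, fie1 was listed at 0. Whether fie1 reads were counted for fie2 in endosperm, where fie1 was the higher, was not tested.

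**Figure D2:**
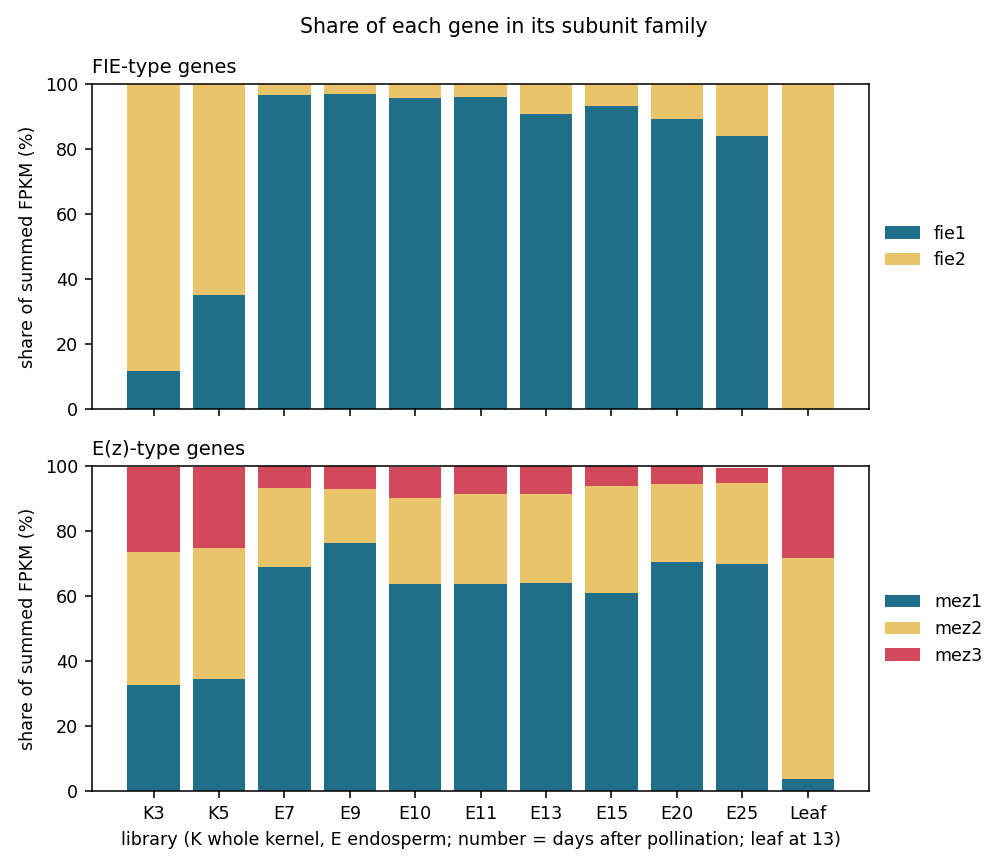
Share of each gene in the summed FPKM of its subunit family, in percent, by library, for the FIE-type genes (top) and the E(z)-type genes (bottom). A further E(z)-type identifier, at most 0.5% of its family, makes up the small remainder. The fie1 share is 84.1% or more in every endosperm library and the mez1 share 61.0% or more, against 0% and 3.7% in leaf.

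The mez1 transcript, for a catalytic E(z)-type subunit matched to Arabidopsis CURLY LEAF, was high in endosperm at all stages and low in leaf. It measured 9.39 FPKM in the 3 DAP kernel and 12.87 FPKM in the 5 DAP kernel. In endosperm it was at 19.09 FPKM on day 7, 31.42 on day 9, 24.33 on day 10, 20.39 on day 11, 18.62 on day 13, 16.7 on day 15, 16.64 on day 20 and 21.47 on day 25, and in leaf at 0.88 FPKM. The order was endosperm above kernels above leaf without overlap. The highest endosperm value was 1.89 times the lowest, whereas that ratio was 9.24 for fie1 and 1.82 for fie2.

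No trend was called for mez1: its slope was -0.0169 ± 0.0193 per day (SE), with an adjusted p of 0.5 by limma, and 0.46 in the curved test. The slope was positive under the other scalings, at 0.0175 after quantile normalization, 0.024 after upper quartile scaling and 0.0202 after rescaling without the 100 highest genes, and was not called there. Leaving out the 7 DAP library brought the curved test to an adjusted p of 0.038. Between fie1 and mez1, a pair chosen after the values were seen, the slopes differed by -0.161 per day (exact permutation p = 0.00042, two-sided). In the 7 to 11 DAP endosperm fie1 was 1.95 to 2.79 times as high as mez1 in FPKM, and at 25 DAP the ratio was 0.349.

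Among the E(z)-type genes, mez1 took the larger share in endosperm and mez2 in leaf. The mez1 share of their summed FPKM was 32.7% and 34.6% in the 3 and 5 DAP kernels, between 61.0% and 76.5% in endosperm, and 3.7% in leaf. The mez2 gene (GRMZM5G875502) held 41.0% and 40.3% in those kernels, between 16.6% and 33.1% in endosperm, and 68.0% in leaf. Its levels were 5.71 to 10.12 FPKM in endosperm, 11.77 and 14.99 FPKM in the 3 and 5 DAP kernels and 16.36 FPKM in leaf. The mez3 gene (GRMZM2G043484) had 1.25 to 3.68 FPKM in endosperm, 7.53 and 9.31 FPKM in kernels and 6.74 FPKM in leaf. As deposited, both mez2 and mez3 were thus lower at every endosperm stage than in kernels or leaf. For mez2 the gap was small, with 10.12 FPKM in the 10 DAP endosperm and 11.77 FPKM in the 3 DAP kernel. Whether that order holds under the other scalings was not tested. The mez1 level was higher at every endosperm stage than in kernels or leaf. Kernel and leaf values lay close to each other for mez2 (14.99 FPKM at 5 DAP and 16.36 FPKM in leaf). The same held for mez3 (7.53 FPKM at 3 DAP and 6.74 FPKM in leaf), so kernels and leaf are not ordered here.

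Neither mez2 (slope -0.00888 per day, adjusted p = 0.69) nor mez3 (slope -0.041 per day, adjusted p = 0.098) had a called trend by limma. Without the 7 DAP library mez3 was called (adjusted p = 0.035). The slope differences among the E(z)-type genes were -0.00798 per day for mez1 minus mez2, 0.0241 for mez1 minus mez3 and 0.0321 for mez2 minus mez3, with adjusted permutation p of 0.86, 0.28 and 0.13 (exact, over the 7 pairs). A slope difference was thus not shown within the E(z) family, which does not show that its members changed alike. The mez2 slope turned positive under each of the 3 other scalings (0.0188 to 0.0293 per day).

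**Figure D3:**
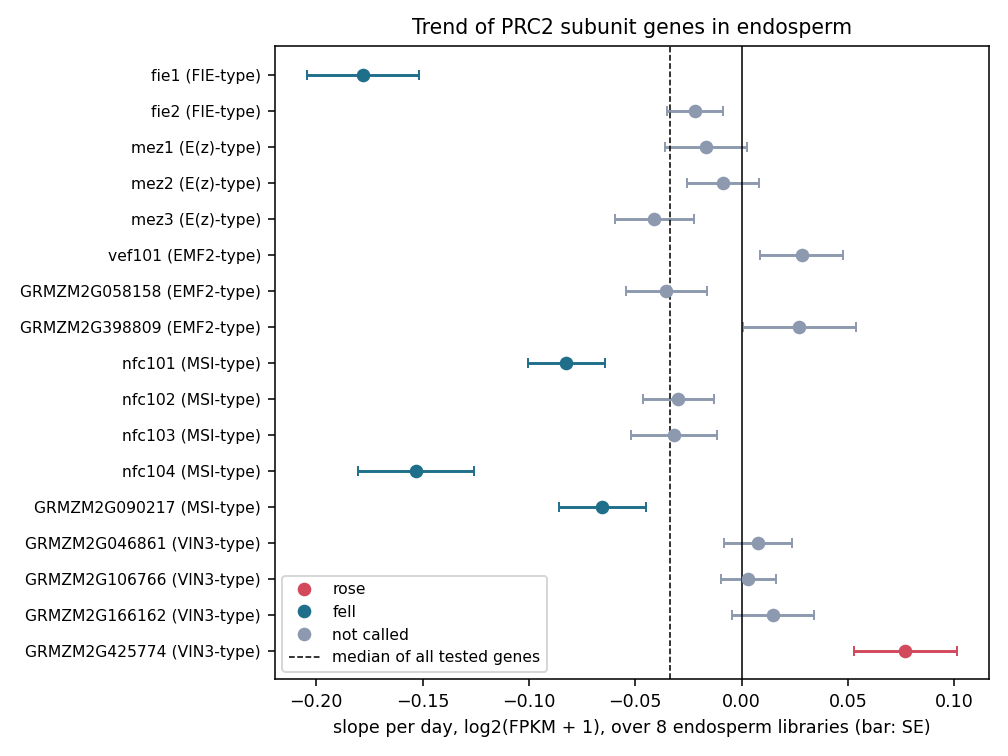
Slope per day of log2(FPKM + 1) over the 8 endosperm libraries for the 17 PRC2 subunit genes that passed the filter, with the standard error as a bar. The dashed line is the median slope of all tested genes, -0.0339 per day. The fie1 point, at -0.178, lies farthest to the left.

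EMF2-type proteins are the zinc finger subunits of PRC2, and 3 genes matched Arabidopsis AtEMF2. The gene vef101 (GRMZM2G157422) had 2.12 to 5.28 FPKM in endosperm, 6.08 and 8.26 FPKM in the 3 and 5 DAP kernels and 2.95 FPKM in leaf. GRMZM2G398809 had 18.82 and 24.49 FPKM in those kernels, but 3.02 to 10.05 FPKM in endosperm and 6.26 FPKM in leaf. GRMZM2G058158 was more even, at 4.8 to 12.12 FPKM in endosperm, 8.25 and 8.39 FPKM in kernels and 5.19 FPKM in leaf. None of them had a called slope (adjusted p = 0.26, 0.42 and 0.15). The curved test called GRMZM2G398809 (adjusted p = 0.014), which was lowest at 15 DAP and at 10.05 FPKM at 25 DAP. With the 25 DAP library left out it was not called (adjusted p = 0.089). The gene vef101 was called as rising under the 3 other scalings (adjusted p = 0.033 to 0.046). GRMZM2G058158 was called as falling without the 25 DAP library (adjusted p = 0.021).

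MSI-type proteins bind histones in PRC2 and also serve in other chromatin complexes. Of 6 such genes 5 were tested and 3 fell, beside 37.4% of all tested genes. The nfc104 gene (GRMZM2G032711) had 9.96 FPKM on day 7, 8.66 on day 10, 2.45 on day 13 and 1.35 on day 25, with a slope of -0.153 per day (adjusted p = 0.0027). The nfc101 gene (GRMZM2G137965) had 23.21 FPKM at 7 DAP and 9.91 FPKM at 25 DAP, with a slope of -0.0824 per day (adjusted p = 0.0064). GRMZM2G090217 had 8.84 FPKM at 7 DAP and 4.37 FPKM at 25 DAP, with a slope of -0.0655 per day (adjusted p = 0.027). The call of nfc101 did not hold under upper quartile scaling (adjusted p = 0.062) or without the 20 and 25 DAP libraries (0.095). That of GRMZM2G090217 did not hold under quantile normalization (0.15), upper quartile scaling (0.21), rescaling (0.15), without the filter (0.059) or without the 20 and 25 DAP libraries (0.29). The call of nfc104 held under every alternative tried. Leaving out the library of day 7, 10 or 20 also ended the call of GRMZM2G090217 (adjusted p = 0.059, 0.054 and 0.078). The most abundant of the family in endosperm, nfc102 (GRMZM2G316113), stayed between 17.16 and 30.66 FPKM there, with 12.65 FPKM in leaf. Its slope was not called (adjusted p = 0.16), nor was that of nfc103 (GRMZM2G023372), at 9.1 to 19.52 FPKM (adjusted p = 0.22). The nfc102 slope turned positive under all 3 other scalings and was called as a fall without the 25 DAP library (adjusted p = 0.033). GRMZM2G320606 had at most 1.13 FPKM and was not tested.

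VIN3-type proteins assist PRC2 at flowering genes in Arabidopsis. Of 4 such genes, GRMZM2G425774 rose, with 10.04 FPKM on day 7, 18.73 on day 20 and 48.67 on day 25 (slope 0.077 per day, adjusted p = 0.027). This rise rested on the ends of the series, since the adjusted p was 0.36 without the 25 DAP library and 0.092 without the 7 DAP library. GRMZM2G046861 (4.07 to 7.57 FPKM in endosperm, 0.34 in leaf), GRMZM2G106766 (2.51 to 3.44, and 0.39 in leaf) and GRMZM2G166162 (6.94 to 12.83, and 2.39 in leaf) were not called on the deposited values. Upper quartile scaling called GRMZM2G166162 and GRMZM2G046861 as rising (adjusted p = 0.036 and 0.049), and rescaling without the 100 highest genes called GRMZM2G166162 (0.049). All 4 were lower in leaf than in every endosperm library.

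Over the whole PRC2 list of 18 genes, 17 were tested, 1 rose, 4 fell and 12 were not called, with a median slope of -0.0219 per day. Beside that, 10.3% of all tested genes rose and 37.4% fell, and their median slope was -0.0339 per day. Without fie1, fie2 and mez1 the list had 1 rise and 3 falls among 14 tested genes and a median slope of -0.0193 per day. The falls of the list numbered 3 after quantile normalization, 2 after upper quartile scaling and 6 without the 25 DAP library, and the rises 2, 4 and 0.

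**Figure D4:**
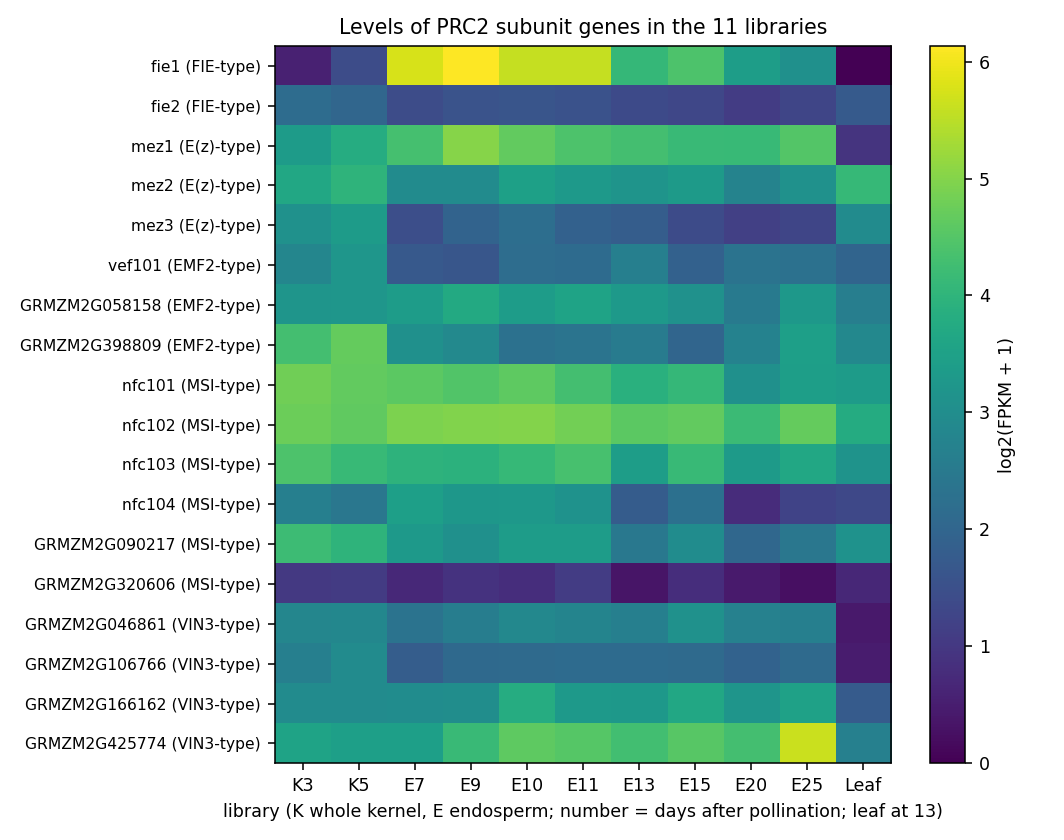
Levels of the 18 PRC2 subunit genes, as log2(FPKM + 1), in the 11 libraries, grouped by subunit type. The fie1 row is bright at 7 to 11 DAP of endosperm (47.12 to 69.19 FPKM) and dark in kernels and leaf. On the deposited values mez2 and mez3 are dimmer at every endosperm stage than in kernels and leaf, for mez2 by a small gap at 10 DAP.

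PRC1 and its partners read or reinforce the PRC2 mark. Of 8 listed genes 7 were tested, 2 rose and 0 fell, beside 10.3% and 37.4% of all tested genes, with a median slope of -0.0136 per day, beside -0.0339. The most abundant, GRMZM2G158162, matched to the B3-domain repressor HSI2, had 3.78 FPKM on day 7, 7.49 on day 13 and 10.33 on day 25 (slope 0.0566 per day, adjusted p = 0.033). Leaving out the library of day 7, 9 or 25 ended its call (adjusted p = 0.1, 0.063 and 0.15). The other rise was a RING1A match, GRMZM2G383833, named after its values were seen, with 2.01 FPKM on day 7 and 6.81 FPKM on day 25 (adjusted p = 0.0078, and 0.14 with the 25 DAP library left out). GRMZM2G089355, also matched to RING1A, had 11.07 and 11.13 FPKM in the 3 and 5 DAP kernels but 1.4 to 4.46 FPKM in endosperm, and the EMF1 match GRMZM2G357737 had 2.09 to 4.05 FPKM in endosperm. Neither had a called slope (adjusted p = 0.71 and 0.24).

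Trithorax proteins and H3K27 demethylases act against PRC2. Genes were listed here by words such as trithorax and jumonji, so not every one of them need act in this way. Of 17 listed genes 11 were tested, 0 rose and 4 fell, a share of falls near the 37.4% of all tested genes, of which 10.3% rose. The median slope of the list was -0.00582 per day, beside -0.0339. The most abundant were the ATX2 match GRMZM2G013794, highest at 9 DAP (16.96 FPKM) and lowest in endosperm at 15 DAP (6.99 FPKM), and the JMJ30 match GRMZM2G052908, at 7.13 to 13.5 FPKM in endosperm and 0.3 FPKM in leaf. Next was the JMJ12 match GRMZM2G329159, at 3.09 to 6.46 FPKM in endosperm. No slope was called for these (adjusted p = 0.41, 0.96 and 0.22). GRMZM2G329159 was called as rising under the 3 other scalings (adjusted p = 0.018 to 0.028). The 4 genes that fell, named after their values were seen, were all low. JMJ12 is an H3K27 demethylase in Arabidopsis, and its match GRMZM2G431157 had 5.11 FPKM on day 7 and 0.2 on day 25 (slope -0.151 per day, adjusted p = 0.0027). A second JMJ12 match, GRMZM2G321810, had 3.82 and 0.11 FPKM on those days. The other two were matches of ATXR5 (GRMZM2G149587) and ATXR6 (GRMZM2G305124), which carry a trithorax-related name but add a single methyl group to the same lysine in Arabidopsis. They had at most 3.41 FPKM. The ATXR5 match was not called under any of the 3 other scalings (adjusted p = 0.18 to 0.45) or without the 25 DAP library (0.11), and the ATXR6 match was not called without the 7 or the 20 DAP library (0.082 and 0.071).

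Between kernels and endosperm, the levels can follow both the share of endosperm cells in a sample and the RNA per cell, and these cannot be told apart. In the 5 DAP kernel fie1 was at 1.68 FPKM, 3.57 times the 0.47 FPKM of the 3 DAP kernel. Of fie1, fie2 and mez1 none was at least 4-fold higher or lower at 5 DAP on the FPKM + 1 scale, beside 0.208% of all genes higher and 0.0937% lower. Markers of endosperm regions moved in the same samples: the 3 transfer cell genes summed to 34.46 FPKM at 5 DAP and 0.9 FPKM at 3 DAP, and the 3 genes of the embryo-surrounding region to 25.3 and 0.58 FPKM at the same stages. The fie2 and mez1 ratios were 0.89 and 1.37.

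From kernel to dissected endosperm the step for fie1 was larger. Its FPKM was 31.7 times as high in the 7 DAP endosperm as in the 5 DAP kernel, and it was the 1 gene of the 3 at least 4-fold higher, beside 1.53% of all genes. None was at least 4-fold lower, beside 4.76% of all genes. The mez1 level was 1.48 times as high in the 7 DAP endosperm and fie2 0.55 times as high. Over the same step the transfer cell genes summed to 495.6 FPKM in endosperm and 34.46 FPKM in the kernel, and the embryo-surrounding region genes to 184.6 and 25.3 FPKM. The parts of cell composition and of the day in these ratios were not tested.

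Against leaf at the same age, the 13 DAP endosperm held 16.11 FPKM of fie1, which was listed at 0 in leaf. The mez1 level was 18.62 FPKM in endosperm and 0.88 FPKM in leaf, a difference of 3.38 on the log2(FPKM + 1) scale. Both passed 4-fold on the FPKM + 1 scale, as did 3.68% of all genes in that direction, while none of the 3 was at least 4-fold lower, beside 10.2% of all genes. The fie2 level was 1.61 FPKM in endosperm and 2.32 FPKM in leaf (-0.35 on the same scale), a direction that turned after quantile normalization (0.25) and upper quartile scaling (0.11). These are single libraries, so no test applies. Of the neighbouring endosperm stages, 2 pairs were compared as ratios. The log2 ratios of 10 over 9 DAP were -0.54 for fie1, 0.04 for fie2 and -0.36 for mez1, and those of 25 over 20 DAP -0.33, 0.18 and 0.35. None of these ratios reached 4-fold, beside 0.975% of all genes higher and 0.0176% lower at 10 than at 9 DAP, and 0.0849% higher and 0.882% lower at 25 than at 20 DAP.

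Other imprinted genes of maize endosperm moved in opposite directions, with meg1 falling as fie1 did. The nrp1 gene (GRMZM2G062650), for a NAC-domain protein, rose, with 13.21 FPKM on day 7, 99.25 on day 10, 299.8 on day 13 and 397.0 on day 25 (slope 0.221 per day, adjusted p = 0.024). It was not called when the library of day 7 or 20 was left out (adjusted p = 0.071 and 0.057), or with no filter on mean FPKM (0.08). The meg1 gene (GRMZM2G354335), for a small cysteine-rich transfer cell protein, fell, with 86.55 FPKM on day 7, 69.4 on day 10, 18.89 on day 13 and 2.38 on day 25 (slope -0.288 per day, adjusted p = 0.00063). With fie1, fie2 and mez1 the list of 5 thus held 1 rise, 2 falls and 2 genes not called.

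**Figure D5:**
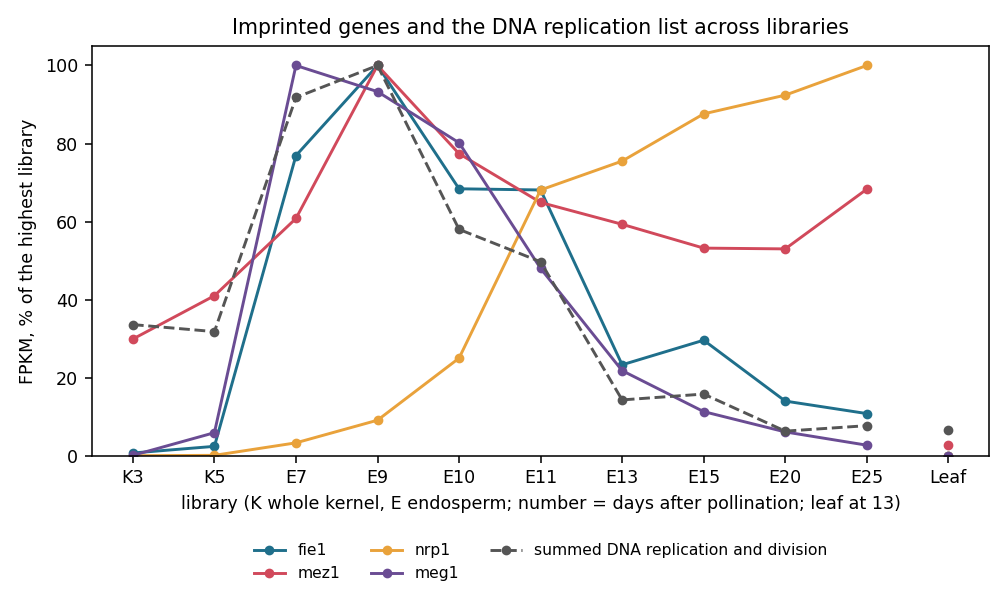
FPKM of fie1, mez1, nrp1 and meg1, and the summed FPKM of the 44 genes of the DNA replication and division list, as a percentage of the highest library of each. At 13 DAP fie1 is at 23.3% and the replication list at 14.3% of the highest value, mez1 at 59.3% and nrp1 at 75.5%.

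Genes of DNA replication and cell division moved alongside fie1. The 44 listed genes summed to 313.9 FPKM on day 7, 341.8 on day 9, 198.3 on day 10, 169.9 on day 11, 48.88 on day 13, 54.11 on day 15, 21.59 on day 20 and 26.32 on day 25 in endosperm, and to 22.87 FPKM in leaf. The sum was highest at 9 DAP, as were fie1 and mez1, but the 7 DAP sum was close to it. The genes of the list differed in this, and the 3 most abundant, named below, were highest at 9 DAP. Others, named after their values were seen, were higher on day 7 than on day 9. These were cyc1 (11.46 and 5.77 FPKM), cyc3 (32.2 and 27.98 FPKM) and pcna1 (19.42 and 16.68 FPKM), among others. Of 20 tested members 17 fell and 0 rose, beside 37.4% and 10.3% of all tested genes, and the median slope was -0.201 per day, beside -0.0339. The most abundant, all of which fell, were pcna2 (GRMZM2G108712), the sliding clamp of replication, with 42.61 FPKM at 7 DAP and 1.99 FPKM at 25 DAP, the MCM4 match GRMZM2G066101, with 26.92 and 1.94 FPKM, and the MCM3 match ROA (GRMZM2G100639), with 22.68 and 1.34 FPKM on the same days. The transfer cell genes, at 495.6 FPKM at 7 DAP and 11.54 FPKM at 25 DAP, and the embryo-surrounding region genes, at 184.6 and 0.33 FPKM, also all fell. Their part in the fall of fie1 was not tested. In the 3 and 5 DAP kernels the replication list summed to 115.0 and 108.7 FPKM while fie1 was at 0.47 and 1.68 FPKM.

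The genes most like fie1 were ranked by Pearson correlation of log2(FPKM + 1) over the 11 libraries among 7604 named or described genes. The libraries share tissue and stage and are not independent, so the values describe likeness alone. An eIF4A-2 match, GRMZM2G028366, had r = 0.992, with 1.38 FPKM in the 5 DAP kernel, 39.05 on day 7, 68.34 on day 9 and 9.89 on day 25 in endosperm, and 0.01 in leaf. A match of the ubiquitin-related protein RUB1, GRMZM2G044440, had r = 0.99, with 58.31 FPKM at 9 DAP and 0 in leaf. The bZIP-named gene bZIP46 (GRMZM2G037910) had r = 0.988, with 14.13 FPKM at 11 DAP, its highest value, and 0 in leaf. The following genes were a nucleolin-like match, GRMZM2G131943 (r = 0.979), and a Ran-binding protein match, GRMZM2G078933 (r = 0.978), both of which were also expressed in kernels and leaf.

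The genes most like fie2 were all highest in the 3 DAP kernel, as fie2 was. They were matches of nicotinate phosphoribosyltransferase 1 (GRMZM5G862488, r = 0.981), of the phosphatase HAB2 (GRMZM2G134628, r = 0.971), of the phosphatase CPL1 (GRMZM2G588223, r = 0.97) and of the kinases KIPK (GRMZM2G412524, r = 0.97) and ATPK19 (GRMZM2G056355, r = 0.967). In leaf these genes ranged between 5.58 FPKM and 17.93 FPKM.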

How the data were processed

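The authors deposited 1 table of FPKM values for 34145 genes in 11 libraries, rounded to 2 decimals, with an Arabidopsis match beside part of them. The tools named per the submitters' processing notes are cutadapt, TopHat2 and edgeR, without roles or versions. Build, annotation and counter were not given in the sources used here. Library sums ran from 273651 to 300271 FPKM, and depth is unknown, so no counting interval is given.

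Gene names were looked up as RefSeq synonyms in a table of the assembly Zm-B73-REFERENCE-NAM-5.0, which covered 18367 identifiers (53.8%). Values were analysed as log2(FPKM + 1), which understates the fold change of low genes. Slopes per day over the 8 endosperm libraries, and a joint F-test of day and day squared, were fitted with limma 3.58.1 in R 4.3.3 (eBayes with a mean-variance trend) for the 15149 genes whose endosperm mean reached 1 FPKM. The limma p-values were two-sided and Benjamini-Hochberg adjusted over these genes, with a threshold of 0.05. The fits leave 6 and 5 residual degrees of freedom. Different days are not replicates, so departures from the fitted line serve as error. The scripts were tested on simulated data.

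The exact permutation tests compared slopes within subunit families. Of the lists, 5 are pathway lists, matched by description words or symbols, and 2 homonyms were left out after their values were seen. EZA1 and AtEMF2 matches were taken from the symbol column. The genes, the lists and the tests were chosen with earlier results of these data known. Named genes are the 3 members, the whole PRC2 list, the 3 most abundant genes of each other pathway list and the 5 most alike to fie1 and to fie2. Alternatives changed the pseudocount, filter, scaling, time scale, variance model and libraries.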

Additional observations from a re-analysis of the deposited data

How the results depend on the processing

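Over 20 alternatives the slope of fie1 stayed negative and called, between -0.215 and -0.166 per day (adjusted p = 0.00094 to 0.0065) when single libraries were left out. Its curved call ended without the 20 and 25 DAP libraries (0.095), and ranged from 0.0013 to 0.011 without single libraries. The difference of fie1 minus fie2 was not called without those 2 libraries (-0.214 per day, adjusted p = 0.24) or without the 9 and 25 DAP libraries (-0.165, 0.068), and lay between -0.18 and -0.145 without single ones. The added difference of fie1 minus mez1 was chosen after the data were seen and was judged on its permutation p without adjustment. By that looser criterion it stayed called under all 14 alternatives tried for it. The calls of fie1 minus fie2 used p adjusted over the pairs tested within subunit families. How well the calls of these differences held therefore cannot be compared. Why the calls moved was not tested, beyond the smaller number of libraries where some were left out. No paired analysis was possible because each stage had 1 library. Depth is unknown, so what it limits cannot be stated, and levels near 1 FPKM, such as fie2, are compressed by the pseudocount.

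Among all tested genes, 1561 rose, against 973 with a filter of 5 FPKM, 3100 after quantile normalization, 3208 after upper quartile scaling and 3074 after rescaling without the 100 highest genes. The 5671 falls became 3139, 3237, 3395 and 3605 in that order, and 3445 without the 20 and 25 DAP libraries. The share of rises among calls was 21.6% as deposited and 48.9%, 48.6% and 46% under the 3 scalings. The 8239 curved calls became 4738 with a filter of 5 FPKM and 2482 without the 20 and 25 DAP libraries. Leaving out single libraries gave 1173 to 1523 rises, 4487 to 5534 falls and 6763 to 8537 curved calls.

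Slopes that changed sign were not called in either setting. After quantile normalization, upper quartile scaling and rescaling without the 100 highest genes, in this order, slopes per day were 0.0137, 0.00443 and 0.00175 for fie2, 0.0175, 0.024 and 0.0202 for mez1, and 0.0188, 0.0293 and 0.0254 for mez2. They were 0.00553, 0.0112 and 0.00751 for nfc102, 0.0217, 0.0163 and 0.0132 for GRMZM2G089355, 0.0111, 0.00969 and 0.00646 for GRMZM2G357737, 0.00645, 0.0156 and 0.0119 for GRMZM2G013794, and 0.0264, 0.0377 and 0.0338 for GRMZM2G052908. For nfc103 the last 2 gave 0.00785 and 0.00419, and for GRMZM2G058158 upper quartile scaling gave 0.00264.

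Without the 20 and 25 DAP libraries the slope was -0.115 for GRMZM2G398809, 0.0399 for mez2, 0.103 for GRMZM2G089355, 0.0826 for GRMZM2G052908 and -0.0239 for GRMZM2G329159. In that setting the differences were -0.0324 for mez1 minus mez3 and 0.0675 for GRMZM2G058158 minus GRMZM2G398809. Without the 9 and 25 DAP libraries the slope was -0.02 for GRMZM2G398809 and 0.0316 for GRMZM2G089355. With the order of the stages it was 0.0187 per stage for GRMZM2G089355 and 0.0224 for GRMZM2G052908, which had 0.0293 per doubling of the day. The difference of vef101 minus GRMZM2G398809 was -0.00432 with a pseudocount of 5 FPKM.

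When single libraries were left out, slopes ranged from -0.0354 to -0.0162 for fie2, -0.0444 to -0.00511 for mez1, -0.0178 to 0.00205 for mez2, -0.00397 to 0.0242 for GRMZM2G046861, -0.00524 to 0.0086 for GRMZM2G106766 and -0.0288 to 0.0494 for GRMZM2G398809. They ranged from -0.0319 to 0.0546 for GRMZM2G089355, -0.0122 to 0.00783 for GRMZM2G052908 and -2.7e-05 to 0.0356 for GRMZM2G329159. The curved test of mez1 ranged from 0.038, without 7 DAP, to 0.69. The differences ranged from -0.0289 to 0.0725 for vef101 minus GRMZM2G398809 and -0.0276 to 0.00846 for mez1 minus mez2.

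For single libraries, the log2 ratio of mez1 in 13 DAP endosperm over leaf was 4.26 with a pseudocount of 0.1 FPKM and 2.01 with 5 FPKM, and that of fie2, -0.35 as deposited, turned to 0.25 with quantile normalization and to 0.11 with upper quartile scaling. The log2 ratio of fie1 at 5 over 3 DAP was 1.64 with a pseudocount of 0.1 FPKM. Its log2 ratio at 7 DAP over the 5 DAP kernel was 3.12 with 5 FPKM.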
